A study of Mus musculus with 12 samples.

Results

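The genes described here carry glucose carbon from glucose 6-phosphate to pyruvate and decide what becomes of the pyruvate. A list of 36 gene symbols was matched by Ensembl identifier on GRCm38 to 37 of the 53715 rows of a spleen RNA-seq count table. One symbol, Aldoa, matched 2 rows. Membership follows function, and the rule uses no measured value, but the list was chosen with earlier results of these data known. A filter on low counts kept 36 of the 37 rows for testing. The row left out was the second Aldoa locus (ENSMUSG00000114515.2), which had 4 to 17 counts per library.

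All 12 libraries came from spleens of BXSB.Cg-Cd8atm1Mak Il15tm1Imx Yaa mice, called Yaa DKO. Every group, the controls included, therefore carries the Yaa locus, a Y-linked lupus-accelerating duplication, together with the targeted Cd8a and Il15 alleles. One group of 4 was untreated at 6 weeks of age (replicates 1 to 4), a second group of 4 was untreated at 10 weeks (replicates 5 to 8), and the third group of 4 was 10 weeks old and drank water containing 2-deoxyglucose (2DG) at 6 g/L (replicates 9 to 12). The agent was taken freely with the water, so the dose reaching each animal is not known. No group without Yaa or with intact Cd8a and Il15 was analysed here, and the labels do not say that each library came from its own mouse, so the p-values rest on a spread between samples that could be technical.

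Glycolysis splits a phosphorylated sugar into a pair of triose phosphates and oxidises them to pyruvate, yielding ATP and NADH. 2DG is taken up and phosphorylated by hexokinase, but its phosphate is not carried further by glucose-6-phosphate isomerase, the first of the steps listed here. Pyruvate is then either reduced to lactate and exported, which is the main route in activated lymphocytes and the sole route in mature red cells, or imported into mitochondria and oxidised by pyruvate dehydrogenase, a complex that is switched off by its kinases and on by its phosphatases.

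Total counts ran from 15596040 to 26079979 per library, and the 36 symbols together took 0.212% to 0.26% of them. Levels are CPM, counts scaled to a common library size after correction for composition, given as mean ± SD of 4 libraries or for each library in replicate order. Changes are log2 differences fitted with edgeR's quasi-likelihood test across 18542 genes, and adjusted p-values (Benjamini-Hochberg over all of those genes) under 0.05 counted as called. B cell markers (9 genes, 3025 to 6041 CPM in sum) and T cell markers (8 genes, 462 to 682 CPM) were present in every library, as the label spleen requires. Spread within a group, as edgeR's coefficient of biological variation, was widest in the untreated 10-week spleens (0.241), beside 0.127 in the 6-week and 0.114 in the treated spleens. By the median of its correlations with other libraries, untreated 10-week replicate 8 was closer to the 6-week group (0.994) than to its own (0.985), and replicate 6 had the lowest such value within its own group, 0.98. Counts of members called are also given without them, with values for some of the members that change.

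Genes of several glycolytic steps were lower in 2DG-treated than in untreated spleens of the same age. Of 36 tested members 6 were called lower (Pfkp, Pgam1, Pgam2, Pkm, Slc16a3 and Pfkfb3), 1 was called higher (Pfkm) and 29 were not called. Over all genes tested 7.42% were called, 5.26% lower and 2.16% higher. Only the Pgam2 call held in a fit of only the compared groups, and likewise without 2DG replicate 10 or without 2DG replicate 11. Unadjusted p-values were under 0.05 for 16 members, 14 lower and 2 higher (24.5% of all genes). The fitted change was below 0 for 23 of 36 members (48.2% of all genes) with a median of -0.11 on the log2 scale, against 0.0096 over all genes. For 10 members every 2DG library lay below every untreated 10-week library (7.91% of all genes), and for 0 members every 2DG library lay above (4.48% of all genes). In a bulk tissue, fewer cells of a type and less RNA per cell cannot be told apart.

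**Figure D1:**
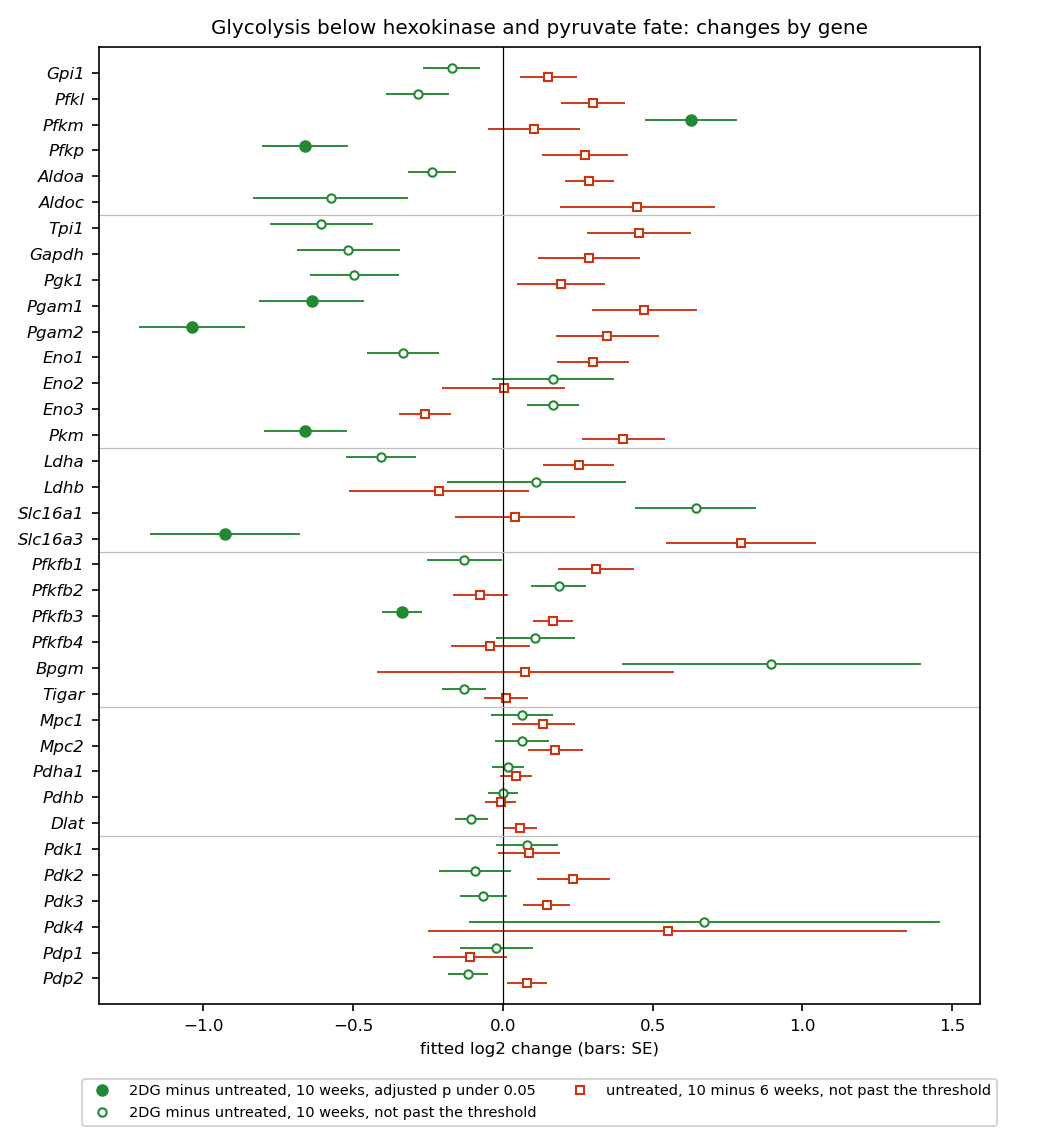
Fitted log2 change (horizontal axis, bars are 1 SE) of the 36 tested members, in the order of the pathway with grey lines between roles. Circles compare 2DG with untreated spleens at 10 weeks and squares compare untreated spleens at 10 and 6 weeks, with filled symbols for the 7 members called. The dehydrogenase genes Pdha1, Pdhb and Dlat sit near 0 in both comparisons.

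The promoter sequences of some members called lower are shown because glycolytic genes are textbook targets of hypoxia-inducible factor, whose response element holds the core ACGTG or GCGTG. Each window is the 250 bases upstream of a RefSeq start on GRCm38.p6 (of one start for genes with several; the other start of Pkm holds 0 of these cores, and that of Pfkfb3 holds 2 ACGTG and 1 GCGTG), read 5′ to 3′ on the gene's strand, with these cores in capitals on either strand (CACGT and CACGC are their reverse complements). The window of Slc16a3 (chr11:120948817-120949066, plus strand) holds 2 ACGTG cores, that of Pkm (chr9:59656977-59657226, plus strand) holds 1, that of Pfkfb3 (chr2:11553930-11554179, minus strand) holds 1, that of Pfkp (chr13:6648772-6649021, minus strand) holds 3 GCGTG cores, and that of Pgam2 (chr11:5803797-5804046, minus strand) holds 0 of either.
Slc16a3: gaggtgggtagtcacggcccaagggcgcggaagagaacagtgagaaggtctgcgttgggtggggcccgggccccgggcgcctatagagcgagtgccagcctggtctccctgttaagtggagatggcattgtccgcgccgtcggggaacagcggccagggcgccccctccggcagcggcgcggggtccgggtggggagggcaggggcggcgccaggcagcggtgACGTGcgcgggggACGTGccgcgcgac
Pkm: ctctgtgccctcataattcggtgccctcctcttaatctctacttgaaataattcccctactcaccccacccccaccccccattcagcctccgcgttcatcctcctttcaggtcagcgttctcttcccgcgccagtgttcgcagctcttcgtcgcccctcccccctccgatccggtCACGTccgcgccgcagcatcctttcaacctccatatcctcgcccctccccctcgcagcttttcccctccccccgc
Pfkfb3: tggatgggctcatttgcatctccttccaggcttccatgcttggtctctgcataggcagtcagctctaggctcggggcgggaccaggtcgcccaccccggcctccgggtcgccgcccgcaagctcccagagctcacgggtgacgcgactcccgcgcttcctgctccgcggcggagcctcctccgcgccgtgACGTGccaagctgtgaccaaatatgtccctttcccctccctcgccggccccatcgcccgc
Pfkp: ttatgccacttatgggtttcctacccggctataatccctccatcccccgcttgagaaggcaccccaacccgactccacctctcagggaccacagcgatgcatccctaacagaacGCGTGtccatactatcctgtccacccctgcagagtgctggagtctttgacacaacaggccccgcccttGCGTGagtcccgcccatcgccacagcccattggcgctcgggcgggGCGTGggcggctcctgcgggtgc
Pgam2: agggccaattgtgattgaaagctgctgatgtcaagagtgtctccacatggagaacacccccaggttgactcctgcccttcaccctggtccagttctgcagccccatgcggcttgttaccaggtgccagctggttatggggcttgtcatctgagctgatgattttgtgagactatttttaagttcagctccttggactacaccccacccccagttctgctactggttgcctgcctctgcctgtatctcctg

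Of 36 symbols 35 had a start in the RefSeq table, with 54 starts in all. An ACGTG core was present at 33.3% of these starts and at 16.6% of all 32851 mouse starts in the table, and GCGTG at 50% and 28.2%. The E-box CACGTG, which contains ACGTG and is bound by Myc among other factors, was present at 13% and 6.02%. Member windows were also richer in G and C, with a median of 60.4% against 52.4%, so the shares are not matched for base composition. The pyruvate dehydrogenase genes Pdhb, Pdk2, Pdk3 and Pdp2 hold an ACGTG core as well, and none of those 4 was called. Both cores were also found upstream of Pfkm, which was called higher, of Pgam1, called lower, and of Slc16a1, not called. The cores were therefore not confined to members that fell. A match is a description of letters, not evidence of binding.

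In upper glycolysis the calls were on the phosphofructokinases, which commit fructose 6-phosphate to glycolysis and exist as the platelet-type Pfkp, the liver-type Pfkl and the muscle-type Pfkm. Pfkp (ENSMUSG00000021196.14, chromosome 13, 6579768 to 6648777) was at 146, 119, 136 and 127 CPM at 6 weeks, at 220.3, 146, 136 and 137 CPM in untreated spleens at 10 weeks, and at 108, 88.5, 95.7 and 112 CPM with 2DG. All 4 treated libraries lay below all 8 untreated ones. Pfkp fell by 0.66 on the log2 scale against untreated spleens of the same age (SE 0.145, edgeR adjusted p = 0.0184). The call was lost without 2DG replicate 10 or 11 (adjusted p = 0.0691 and 0.066) and in a fit of only the compared groups (0.0638).

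Pfkm (ENSMUSG00000033065.14, chromosome 15, 98092589 to 98132451) moved the other way. Its levels were 28.4, 26.3, 28.1 and 24.2 CPM at 6 weeks, 27.9, 26.0, 36.7 and 24.6 CPM in untreated spleens at 10 weeks, and 45.0, 56.7, 42.6 and 33.6 CPM with 2DG. Treated replicate 12, at 33.6 CPM, lay below untreated replicate 7, at 36.7 CPM, and the other treated libraries were above every untreated one. Pfkm rose by 0.63 on the log2 scale (SE 0.153, edgeR adjusted p = 0.0278). That call was lost under 8 of 20 alternatives (adjusted p up to 0.114), among them leaving out untreated replicate 5 or 6 or treated replicate 9, 10 or 11 (adjusted p = 0.0524 to 0.0897). Without both untreated replicates 6 and 8 the change was 0.46 (edgeR adjusted p = 0.114).

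Pfkl, at 64.5, 56.1, 60.0 and 64.7 CPM at 6 weeks and 96.4, 65.7, 74.7 and 65.5 CPM untreated at 10 weeks, was nearly constant with 2DG at 62.5, 61.9, 61.7 and 62.0 CPM. The treated libraries all lay below the untreated 10-week libraries, but the change of -0.28 was not called (edgeR adjusted p = 0.12). Pfkl was called lower, by 0.47, without untreated replicates 6 and 8 (edgeR adjusted p = 0.00506), left out only once their values were known.

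The isozyme make-up of phosphofructokinase mRNA was compared as shares, which do not depend on library size. Pfkm made up 12.2 ± 0.806% of the counts of the 3 genes at 6 weeks, 11.2 ± 2.77% in untreated spleens at 10 weeks and 21.4 ± 4.58% with 2DG. The lowest treated library, 16.2%, exceeded the highest untreated library, 14.8%. The difference between treated and untreated spleens at 10 weeks was 10.3 percentage points (two-sided exact permutation p = 0.0286, the smallest that 4 against 4 allows, Benjamini-Hochberg adjusted 0.171 over 12 share comparisons). Pfkp made up 60.2 ± 3.76% and 48.7 ± 4.67% in those groups, and Pfkl 28.7 ± 1.11% and 29.9 ± 0.785%. Per kilobase of exon, the mean shares with 2DG were 43.8% for Pfkm, 31.0% for Pfkl and 25.2% for Pfkp, against 27.3%, 35.4% and 37.2% in untreated spleens. The length used merges all annotated exons, 3340 bases for Pfkm, 6675 for Pfkl and 13401 for Pfkp. The longest coding transcripts have 2879, 3730 and 4145 bases. The order of the 3 genes with 2DG depends on which length is used, so it does not show which isozyme was most abundant.

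**Figure D2:**
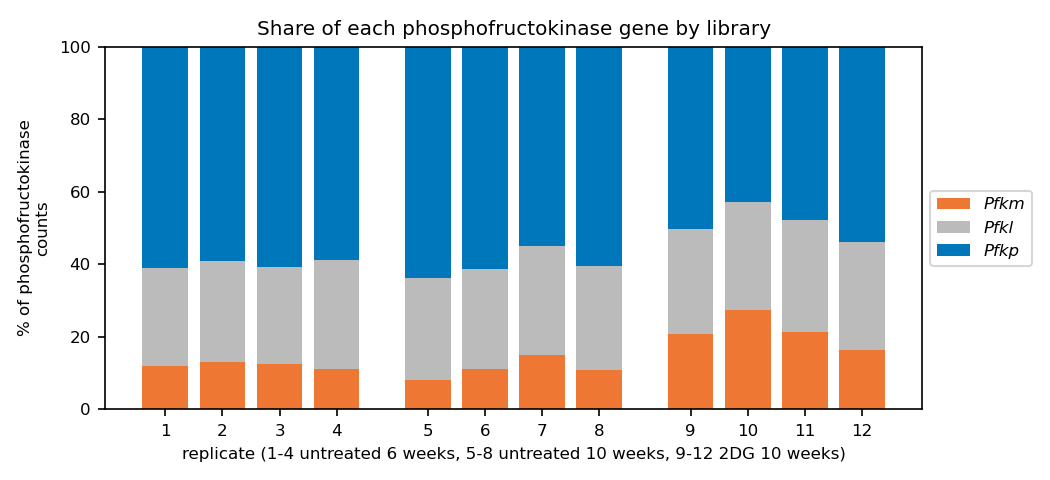
Percent of phosphofructokinase counts (vertical axis) from each of 3 genes in each of 12 libraries (horizontal axis, replicate number, groups separated by gaps). The Pfkm segment reaches 16.2% to 27.4% in the 2DG libraries and stays at or below 14.8% in the untreated ones.

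The libraries with the most Pfkm also had the most red cell marker RNA. The summed level of 11 erythroid genes (Hba-a1, Hba-a2, Hbb-bs, Hbb-bt, Alas2, Slc4a1, Klf1, Epb42, Tfrc, Ermap and Car2) was 6768 to 9988 CPM at 6 weeks, 8481, 2705, 19368 and 8765 CPM in untreated replicates 5 to 8, and 20346, 25502, 21144 and 12154 CPM in treated replicates 9 to 12. Replicate 7 was the highest untreated library and replicate 12 the lowest treated library for both the erythroid sum and Pfkm. All 11 erythroid genes had a positive fitted change with 2DG (median 1.07), of which 1, Hba-a2, was called. The part of red cell precursors in the Pfkm result was not tested. The window upstream of one Pfkm start (chr15:98108221-98108470, plus strand) holds 2 AGATAA sites, a form bound by GATA factors of the erythroid lineage, shown in capitals. It also holds 1 ACGTG and 1 GCGTG core, left in lower case.
Pfkm: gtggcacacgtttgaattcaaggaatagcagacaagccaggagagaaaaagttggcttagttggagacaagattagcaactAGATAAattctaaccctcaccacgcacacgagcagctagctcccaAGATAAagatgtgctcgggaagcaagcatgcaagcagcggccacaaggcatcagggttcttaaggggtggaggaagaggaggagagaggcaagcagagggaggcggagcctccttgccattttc

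AGATAA, searched on both strands, was present at 14.8% of member starts and 9.99% of all starts. Besides Pfkm it was found upstream of Pdk4, Pfkfb1, Pfkfb2 and Tigar, none of them called. TGATAA, the other GATA form searched, was present at 11.1% and 7.94%. It was found upstream of Pfkm, Slc16a1, Aldoa, Pdp2, Pfkfb4 and Pkm, the last called lower. CCNCNCCC, a CACCC-type site of erythroid Kruppel-like factors, was present at 75.9% and 45.9%, and upstream of 31 of 35 member genes. These sites were therefore not particular to Pfkm.

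The other members of upper glycolysis were not called. Aldoa, the main aldolase, which cleaves fructose 1,6-bisphosphate, had the most counts per kilobase of them, 81.3 CPM per kilobase of exon in untreated spleens at 10 weeks. It was at 197, 192, 196 and 190.5 CPM at 6 weeks, at 282, 229.8, 219 and 216 CPM untreated at 10 weeks and at 206, 183, 207 and 207 CPM with 2DG. The treated libraries lay below the untreated 10-week libraries without overlap (change -0.24, SE 0.08, edgeR adjusted p = 0.0903). Treated replicate 10 was also below the 6-week libraries, and the other 3 were above them. Gpi1, the isomerase that 2DG 6-phosphate does not pass, stood at 161 ± 21.8 CPM untreated and 143 ± 13.0 CPM with 2DG (change -0.17, edgeR adjusted p = 0.294). Aldoc, the brain-type aldolase, was at 6.02 ± 2.66 and 4.03 ± 0.372 CPM (change -0.58, edgeR adjusted p = 0.193).

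Lower glycolysis, from triose phosphate to pyruvate, had 3 of 9 members called lower and 0 called higher (5.26% and 2.16% of all genes), with a median change of -0.52. Pkm (ENSMUSG00000032294.17, chromosome 9, 59656368 to 59679375), the pyruvate kinase of tissues other than liver and red cells, had the most counts per kilobase of merged exon among them. That rank is uncertain, because several of the others share much of their sequence with pseudogenes, as given below. Pkm levels were 258, 221, 249 and 223 CPM at 6 weeks, 428, 312, 272 and 245 CPM in untreated spleens at 10 weeks, and 200.5, 186, 199.8 and 209 CPM with 2DG. Treated libraries were below all 8 untreated libraries, and untreated replicate 5 was far above the rest of its group. The fall was 1.58-fold (change -0.66, SE 0.139, edgeR adjusted p = 0.0151), and the call was lost without 2DG replicate 10 or 11 (adjusted p = 0.0577 and 0.0512) and in a fit of only the compared groups (0.056).

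Pgam2 (ENSMUSG00000020475.3, chromosome 11, 5801640 to 5803733), the muscle-type phosphoglycerate mutase, had the largest fitted fall of the 36, at a low level. It was at 5.14, 5.17, 4.64 and 5.03 CPM at 6 weeks, at 6.47, 8.59, 5.20 and 5.24 CPM in untreated spleens at 10 weeks and at 2.53, 3.14, 2.90 and 3.84 CPM with 2DG. Every treated library lay below every untreated library of either age. The fall was 2.05-fold against untreated spleens of the same age (change -1.04, SE 0.177, edgeR adjusted p = 0.00497), and it was called under each of the 20 alternatives run. The summed level of 6 skeletal muscle genes (Ckm, Acta1, Myh4, Mb, Tnnt3 and Myl1) was 1.97 to 4.11 CPM in every library, with Tnnt3 making up most of it, and the other 5 were at or near 0 throughout.

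Pgam1, the widely expressed mutase of the same step, also fell. Its levels were 3.14, 2.92, 2.73 and 3.62 CPM at 6 weeks, 5.48, 4.18, 3.46 and 4.09 CPM untreated at 10 weeks and 2.86, 2.39, 2.34 and 3.44 CPM with 2DG, so that the highest treated library was just under the lowest untreated library of that age. The change was -0.64 (SE 0.175, edgeR adjusted p = 0.0443), and the call was lost under 11 of 20 alternatives, with adjusted p up to 0.139. Leaving out any 1 of the 6-week libraries, untreated replicate 5 or 2DG replicate 9, 10 or 11 was enough to lose it (adjusted p = 0.0524 to 0.139).

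Of the other lower-glycolysis genes, Tpi1, which interconverts the triose phosphates, was at 181, 101, 111 and 94.8 CPM untreated and 83.8, 78.1, 79.6 and 78.5 CPM with 2DG, without overlap, and missed the threshold (change -0.61, edgeR adjusted p = 0.0542). Pgk1, the first ATP-yielding step, also did not overlap (change -0.50, edgeR adjusted p = 0.0597). Gapdh, which makes the NADH, had a change of -0.52 (edgeR adjusted p = 0.0854) and Eno1, the main enolase, -0.33 (edgeR adjusted p = 0.107). DESeq2 called Tpi1, Pgk1 and Gapdh lower (adjusted p = 0.0104, 0.0228 and 0.0425) and did not call Eno1. The minor enolases Eno2 and Eno3, known from neurons and muscle, had positive changes of 0.17 each and were not called.

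**Figure D3:**
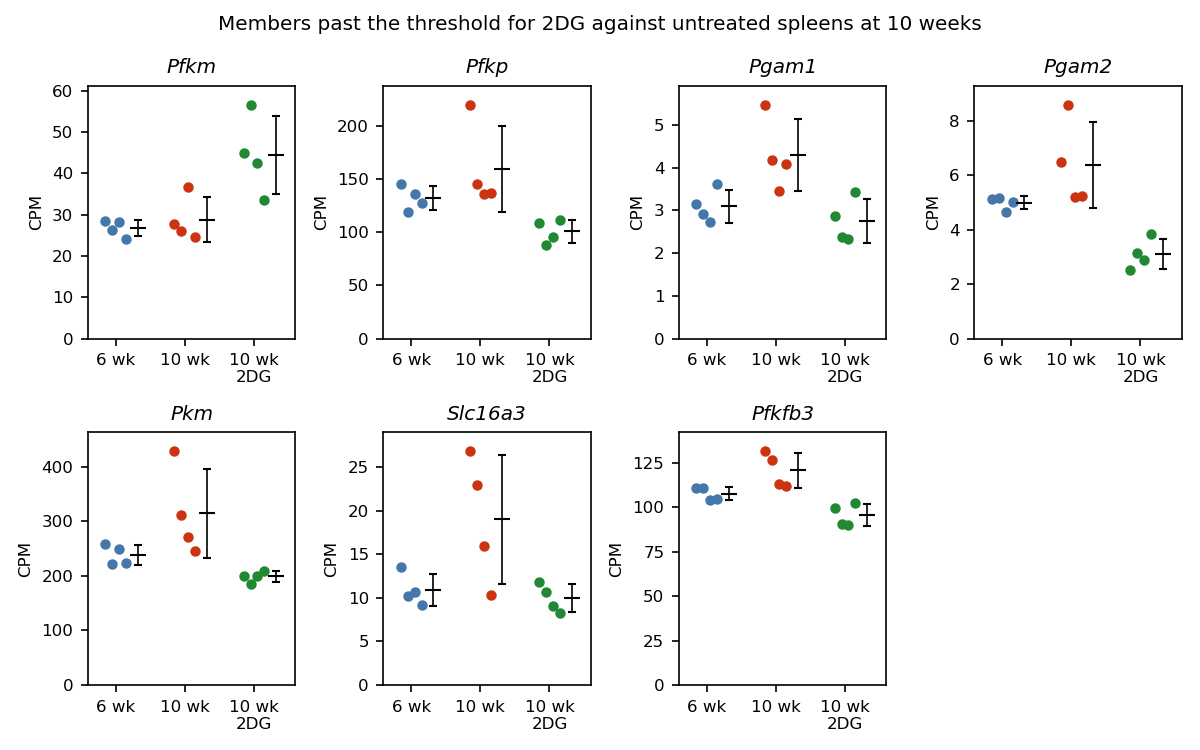
CPM (vertical axis, from 0) of the 7 members called for 2DG against untreated spleens at 10 weeks, with 1 point per library and, to the right of each group, the mean and SD of 4 libraries. Pgam2, Pfkp and Pkm show treated points below all untreated points, while treated and untreated points overlap for Pfkm and Slc16a3.

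The levels of several of these genes are uncertain because processed pseudogenes copy them. In windows of 50 bases along the longest coding transcript of each gene, 82.5% of the Gapdh windows were also found in transcripts of 222 other genes, 213 of them pseudogenes. The same share was 72.2% for Eno1, 68.0% for Pgk1, 41.5% for Pgam1, 30.5% for Pkm, 16.6% for Ldha, 13.5% for Aldoa and 7.51% for Tpi1, and it was 0 for Pgam2, Pfkm, Pfkp, Bpgm, Slc16a1 and Slc16a3. The sources used here do not say how shared reads were counted. Gapdh, usually among the most abundant transcripts of a cell, was at only 4.28 CPM per kilobase in untreated spleens at 10 weeks, beside 62.8 for Pkm, 77.4 for Ldha and 44.3 for Tpi1. Eno1 was at 4.91, Pgk1 at 3.87 and Pgam1 at 2.17 CPM per kilobase. Windows of 100 bases gave 78.0% for Gapdh, 67.0% for Pgk1, 59.0% for Eno1 and 39.7% for Pgam1. Exons of 6 members also overlap other gene models by over 10% of their length, on either strand, and the library kit does not mark strand. The overlap was 23.1% of exon length for Mpc1 (with 4930506C21Rik), 17.4% for Pfkfb2 (Gm29427), 16.1% for Pdha1 (Map3k15), 15.3% for Pkm (Gm49759), 11.5% for Gpi1 (Gm26762) and 10.2% for Pfkm (Gm26513).

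**Figure D4:**
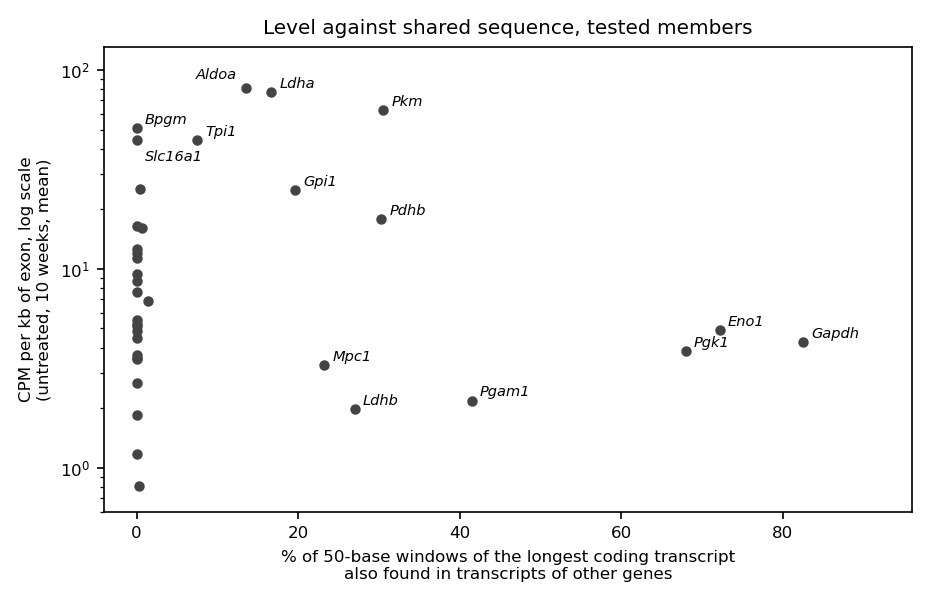
Level in untreated spleens at 10 weeks (vertical axis, log scale, mean CPM per kilobase of exon) against the percent of 50-base windows shared with transcripts of other genes (horizontal axis) for the 36 tested members. The 4 members with the largest shares, Gapdh, Eno1, Pgk1 and Pgam1, all lie below 5 CPM per kilobase.

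Among the genes of lactate production and export, the lactate exporter of highly glycolytic cells, Slc16a3 (MCT4; ENSMUSG00000025161.16, chromosome 11, 120948480 to 120960868), fell. Its levels were 13.5, 10.2, 10.7 and 9.14 CPM at 6 weeks, 26.8, 23.0, 15.9 and 10.3 CPM in untreated spleens at 10 weeks and 11.8, 10.7, 9.09 and 8.26 CPM with 2DG. Untreated replicate 8 stood within the treated range and the other 3 untreated 10-week libraries above it. The fall was 1.90-fold (change -0.93, SE 0.251, edgeR adjusted p = 0.0448). The call was lost under 13 of 20 alternatives, including the loss of any 1 library other than untreated replicates 7 and 8 (adjusted p = 0.0507 to 0.122). Without untreated replicate 8 the change was -1.14 (edgeR adjusted p = 0.00223).

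Slc16a1 (MCT1), which carries lactate in either direction and is found on red cells, was higher in 3 of 4 treated libraries than in any untreated library. It was at 205, 198, 190.4 and 169 CPM at 6 weeks, at 185, 133, 283 and 184 CPM untreated at 10 weeks and at 311, 377, 305 and 233 CPM with 2DG. The change of 0.64 (SE 0.201) was not called (edgeR adjusted p = 0.0751), although DESeq2 called it (adjusted p = 0.0205). As for Pfkm, the overlap came from untreated replicate 7 and treated replicate 12, the extremes of the erythroid sum within their groups.

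Ldha, the subunit that favours lactate formation, was at 239, 203, 223 and 195 CPM at 6 weeks, at 337, 227, 236 and 226 CPM untreated at 10 weeks and at 186, 187, 193 and 206 CPM with 2DG. The treated and untreated 10-week libraries did not overlap, and the change of -0.41 (SE 0.12) was just short of the threshold (edgeR adjusted p = 0.0546), while DESeq2 called it (adjusted p = 0.0214). Ldhb, the subunit of oxidative tissues, was at 2.97, 3.93, 2.82 and 4.60 CPM at 6 weeks, 1.98, 5.59, 2.72 and 2.00 CPM untreated at 10 weeks and 3.66, 2.76, 3.38 and 3.48 CPM with 2DG. It made up 1.67 ± 0.525%, 1.25 ± 0.801% and 1.69 ± 0.195% of lactate dehydrogenase counts, and the share did not pass the test between any pair of groups (exact permutation p = 0.314 to 0.914).

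The bisphosphate regulators set the flux through phosphofructokinase or divert its products. The bifunctional enzymes Pfkfb1 to Pfkfb4 make and break fructose 2,6-bisphosphate, the strongest activator of phosphofructokinase, and the Pfkfb3 form is the one that most favours its synthesis. Pfkfb3 (ENSMUSG00000026773.19, chromosome 2, 11471433 to 11554077) was at 111, 111, 104 and 104 CPM at 6 weeks, at 132, 127, 113 and 112 CPM in untreated spleens at 10 weeks and at 99.5, 90.4, 90.3 and 103 CPM with 2DG. The 3 groups did not overlap, with untreated 10-week spleens highest and treated spleens lowest. The fall with 2DG was 1.26-fold (change -0.34, SE 0.0683, edgeR adjusted p = 0.0121). The call was lost narrowly without 2DG replicate 10 or 11 (adjusted p = 0.0501 and 0.0508) and in a fit of only the compared groups (0.0516).

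The other Pfkfb genes were not called. Pfkfb2 was at 20.6, 19.5, 20.9 and 20.9 CPM at 6 weeks, 18.1, 20.2, 20.6 and 18.7 CPM untreated at 10 weeks and 24.9, 23.7, 21.2 and 18.6 CPM with 2DG. Pfkfb4 was at 24.3, 23.2, 21.1 and 21.4 CPM, then 19.0, 29.4, 20.7 and 18.2 CPM, then 23.7, 24.6, 24.9 and 21.1 CPM in the same order of groups. Pfkfb1, the liver form, was at 3.85, 3.36, 3.54 and 4.42 CPM, then 4.80, 4.79, 4.62 and 4.56 CPM, then 5.05, 4.06, 4.24 and 3.79 CPM. Pfkfb3 was the main form throughout, with 69.7 ± 0.696% of the family's counts at 6 weeks, 72.5 ± 2.56% untreated at 10 weeks and 65.7 ± 3.11% with 2DG. The last difference, -6.78 percentage points, was not called (exact permutation p = 0.0571, adjusted 0.171).

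Bpgm makes 2,3-bisphosphoglycerate, which lowers the oxygen affinity of haemoglobin, and is a red cell enzyme. It was at 187, 218, 119.6 and 169 CPM at 6 weeks, at 144, 43.7, 329.8 and 213 CPM untreated at 10 weeks and at 321, 428, 406 and 205 CPM with 2DG. The libraries ranked the same for Bpgm and for the erythroid sum in both 10-week groups, replicates 7, 8, 5 and 6 from high to low without treatment and 10, 11, 9 and 12 with it. The same order as the erythroid sum was seen for 3.94% of all genes in the first group and 5.73% in the second. The order was not particular to erythroid genes. The muscle sum ranked the untreated 10-week libraries the same way, and the megakaryocyte and platelet sum the treated ones. At 6 weeks Bpgm followed the megakaryocyte and platelet order (replicates 2, 1, 4 and 3) and not the erythroid one (1, 2, 4 and 3). The change of 0.90 had a large error and was not called (SE 0.498, edgeR adjusted p = 0.308). Tigar, a phosphatase that lowers fructose 2,6-bisphosphate, was at 18.8 ± 0.434 CPM untreated and 17.2 ± 1.33 CPM with 2DG (edgeR adjusted p = 0.305).

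**Figure D5:**
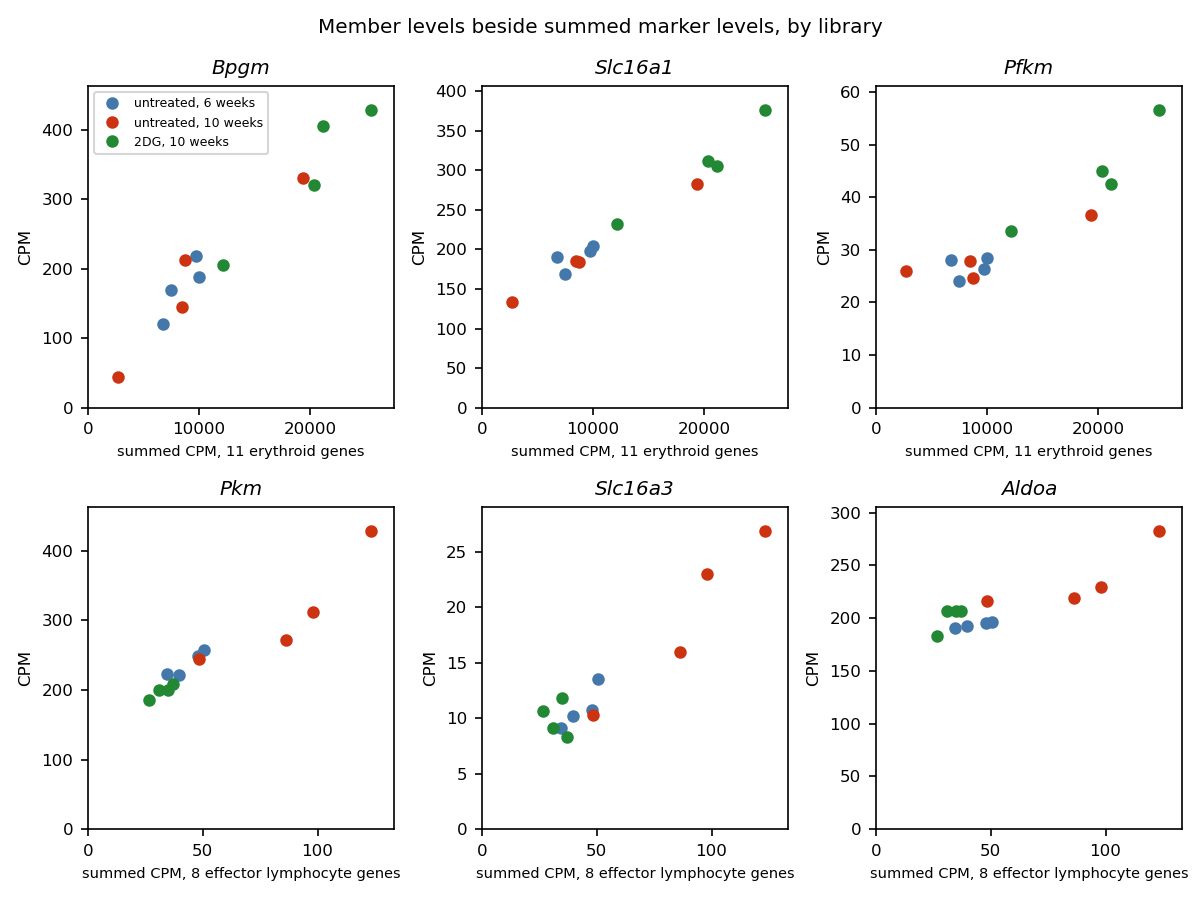
CPM of 6 members (vertical axes) in each of 12 libraries against the summed CPM of 11 erythroid genes (top row) or 8 effector lymphocyte genes (bottom row), coloured by group. Bpgm, Slc16a1 and Pfkm are highest in the libraries with the highest erythroid sums. Pkm, Slc16a3 and Aldoa are highest in untreated 10-week replicate 5, which has the highest effector sum, 123 CPM. That library also has the highest plasma cell sum, 8599 CPM, not plotted.

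Effector lymphocyte markers ranked the untreated 10-week libraries in the same order as several members did. The summed level of 8 effector genes (Ifng, Gzmb, Eomes, Tbx21, Prf1, Nkg7, Tigit and Il10) was 34.3 to 50.6 CPM at 6 weeks, 123, 97.9, 86.2 and 48.3 CPM in untreated replicates 5 to 8 and 26.4 to 37.2 CPM with 2DG. That descending order of replicates 5 to 8 was shared by 7 of 36 members (Aldoa, Gapdh, Eno1, Pkm, Slc16a3, Pfkfb1 and Pfkfb3), or 19.4%, and by 3.73% of all genes, out of 24 possible orders. Of these 7, Pkm, Slc16a3 and Pfkfb3 were called lower with 2DG and the other 4 were not called. This was the largest match of any marker list, and in the same spleens the other lists matched 0 to 2 members. The effector order matched 3 of 36 members with 2DG (8.33%, and 5.24% of all genes) and 5 at 6 weeks (13.9%, and 8.39%). Of the 7, only Pkm recurred with 2DG, and only Aldoa and Slc16a3 at 6 weeks. Of the effector genes 5 of 8 were called lower with 2DG, and of 12 plasma cell genes 11 were (5.26% of all genes). Of the other marker lists, 3 of 8 monocyte and macrophage genes were called lower, 2 of 5 dendritic genes higher and 1 of 7 megakaryocyte and platelet genes higher, with all 7 of the last having positive changes at an unadjusted edgeR p under 0.05. No B cell, T cell or neutrophil marker was called (0 of 9, 0 of 8 and 0 of 9, with 1, 1 and 0 at an unadjusted edgeR p under 0.05). Summed plasma cell markers were 5042 to 8599 CPM untreated at 10 weeks, with replicate 5 the highest of all 12 libraries, and 2208 to 3241 CPM with 2DG. Replicate 5 was the highest of all 12 libraries for 15 of 36 members (41.7%), against 17.6% of all genes. The marker lists were chosen with earlier results of these data known. The part of these cell types in the changes was not tested.

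The 5 genes of the mitochondrial pyruvate carrier and the dehydrogenase complex had fitted changes of -0.11 to 0.06. With edgeR 0 of 5 were called (7.42% of all genes) and 0 had an unadjusted p under 0.05 (24.5%) and DESeq2 called 0. Whether these counts differ from the shares over all genes was not tested. Pdha1, the catalytic subunit that the kinases phosphorylate, was at 92.0, 90.6, 91.9 and 91.3 CPM at 6 weeks, at 90.5, 103, 91.4 and 92.5 CPM untreated at 10 weeks and at 95.0, 92.4, 99.4 and 94.9 CPM with 2DG. The spread over all 12 libraries, as a coefficient of variation, was 4.01% for Pdha1, 3.02% for Pdhb, its partner subunit, and 4.54% for Dlat, the acetyl-transferring core. It was 26.5% for Pkm and 25.8% for Pfkp, both called, so their spread includes a difference between groups. For Mpc1 and Mpc2 it was 9.29% and 11.1%, near the 10.9% of Gpi1 and 10.4% of Eno3, glycolytic genes not called. The carrier genes Mpc1 and Mpc2 had changes of 0.06 each.

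The dehydrogenase kinases, which divert pyruvate from oxidation, and the phosphatases Pdp1 and Pdp2, which oppose them, were not called in any of the 6 cases. Pdk3 had the most counts per kilobase of this role, at 41.6, 36.2, 37.9 and 35.3 CPM at 6 weeks, 46.2, 37.0, 43.9 and 40.2 CPM untreated at 10 weeks and 41.3, 40.5, 40.2 and 37.7 CPM with 2DG. Pdk1, a hypoxia-inducible kinase, was at 34.5, 34.5, 33.8 and 40.1 CPM, then 34.4, 45.8, 34.5 and 37.0 CPM, then 41.7, 43.4, 40.4 and 34.8 CPM. Pdk2 was at 9.74, 8.58, 9.47 and 9.94 CPM, then 10.3, 14.3, 9.40 and 10.4 CPM, then 10.7, 10.2, 10.5 and 10.2 CPM. All 3 kinases overlapped between treated and untreated spleens at 10 weeks.

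Pdk4, the kinase known for its induction by fasting and fatty acids, was the most variable member. Its levels were 21.2, 20.7, 7.80 and 16.4 CPM at 6 weeks, 2.71, 67.1, 5.65 and 21.4 CPM untreated at 10 weeks and 37.5, 27.4, 35.6 and 54.0 CPM with 2DG. The treated libraries lay above all 6-week libraries and within the wide untreated 10-week range, where replicate 6 was highest. The change against untreated spleens of the same age was 0.67 with an SE of 0.787 (edgeR adjusted p = 0.66). Without untreated replicates 6 and 8, the libraries with the highest Pdk4 of their group, it became 3.17 (edgeR adjusted p = 0.00688). Leaving out those libraries also turned the change with age from 0.55 to -1.95 (edgeR adjusted p = 0.0499). Pdk1 made up 36.0 ± 3.27% of kinase counts at 6 weeks, 33.9 ± 4.21% untreated at 10 weeks and 31.2 ± 4.25% with 2DG, differences that did not pass (exact permutation p = 0.143 to 0.457).

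Between 6 and 10 weeks in untreated spleens, 0 of 36 members were called, where 0.00539% of all genes, a single gene, were. The fitted change was above 0 for 30 of 36 members (51.5% of all genes), with a median of 0.16 against 0.0073 over all genes. Unadjusted edgeR p-values were under 0.05 for 10 members, 9 higher and 1 lower (17.1% of all genes), and DESeq2 called 2, Aldoa and Slc16a3 (1.89% of genes with any count). Every 10-week library exceeded every 6-week library for 5 members, Pfkl, Aldoa, Pgam2, Pfkfb1 and Pfkfb3 (3.64% of all genes). Eno3 was the reverse, 25.3 to 27.7 CPM at 6 weeks and 19.3 to 24.6 CPM at 10 weeks (3.33% of all genes).

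The count of members called with age depended on 1 library, untreated replicate 8. That library was picked out by its correlation with the 6-week group in these same data. Leaving it out therefore favours a larger difference with age. Slc16a3 had the largest fitted rise with age, 0.80 (SE 0.251, edgeR adjusted p = 0.158), and untreated replicate 8 was the sole 10-week library within the 6-week range. Without replicate 8, edgeR called 4 members with age, where 8.33% of all genes were called: Slc16a3 (1.01, adjusted p = 0.00995), Pkm (0.51, adjusted p = 0.0335), Aldoa (0.33, adjusted p = 0.0339) and, lower, Eno3 (-0.32, adjusted p = 0.0407). Without replicates 6 and 8 it called 11, 9 higher and 2 lower, and 12.0% of all genes. For 2DG against untreated spleens at 10 weeks, 12 members were called without replicate 8 (11.8% of all genes) and 15 without both (16.7%), 14 of the latter lower. Tpi1, Gapdh, Eno1, Aldoa and Ldha were called lower in both of those fits, with changes of -0.29 to -0.72 without replicate 8.

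Compared with untreated spleens at 6 weeks, 2DG-treated spleens at 10 weeks had 0 of 36 members called (0.129% of all genes) and 6 with an unadjusted edgeR p under 0.05 (16.9% of all genes). DESeq2 called 3, Pfkm, Slc16a1 and Pgam2 (2.45% of genes with any count), and a fit of only the compared groups called 5 (7.54% of genes tested in it). All treated libraries were above all 6-week libraries for Pfkm, Slc16a1, Pdha1, Pdk2 and Pdk4 (7.98% of all genes) and below for Pfkp, Pgam2, Pkm and Pfkfb3 (7.69% of all genes). Pfkm came nearest to the threshold, 0.73 higher (SE 0.153, edgeR adjusted p = 0.0746), followed by Pgam2, 0.69 lower on the log2 scale (edgeR adjusted p = 0.0993). The 3 comparisons share groups with one another, so these values and those above are not independent.

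Set beside related genes, the 2DG comparison at 10 weeks gave the following counts. Over all genes tested 7.42% were called, 5.26% lower, and 24.5% had an unadjusted edgeR p under 0.05. Whether the counts of these short lists differ from those shares was not tested, and the lists were chosen with earlier results of these data known. Of 9 tested genes of glucose entry 1 was called, the inducible hexokinase Hk2, which fell from 50.6 ± 10.1 to 26.7 ± 0.728 CPM (edgeR adjusted p = 0.0032). Of 20 hypoxia-inducible genes and regulators outside glycolysis 3 were called, all lower, with a list median of -0.01. Hif1a, the oxygen-regulated subunit itself, fell from 188 ± 19.3 to 132 ± 19.4 CPM (edgeR adjusted p = 0.0153). Egln3 and Ankrd37, both known targets, fell from 7.86 ± 2.72 to 3.46 ± 1.00 CPM and from 8.94 ± 4.34 to 4.15 ± 0.976 CPM (edgeR adjusted p = 0.0147 and 0.0402). Of 13 genes on branches from glycolytic intermediates, Gfpt1, the entry to hexosamine synthesis, fell from 168 ± 18.2 to 118 ± 5.07 CPM (edgeR adjusted p = 0.00374), and Glo1, which clears the glycolytic by-product methylglyoxal, rose from 28.2 ± 3.56 to 36.3 ± 4.37 CPM (edgeR adjusted p = 0.0433). Of 9 tested genes of other pyruvate and gluconeogenic steps 0 were called with edgeR, and 4 had an unadjusted p under 0.05.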

How the data were processed

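Per the labels' protocols, poly(A) RNA of spleen was made into libraries by the unstranded TruSeq v2 method. The authors deposited whole-number counts per gene and library. The submitters' processing notes list Bowtie2 2.2.0, RSEM 1.2.12 and GRCm38 without a role. Identifiers were matched without version to GENCODE M21 (53620 of 53715 rows; the rest held at most 0.0158% of a library). Replicate pairs differed by a chi-square of 10.5 to 85.2 per gene with at least 20 counts, so none was a duplicate. Counts were fitted over all 12 libraries with edgeR 4.0.16 (TMM, filterByExpr, robust quasi-likelihood; R 4.3.3), with DESeq2 1.42.0, limma 3.58.1 (voom), other filters and scalings, fits of only the compared groups and libraries left out as alternatives. The edgeR script was tested on simulated counts. SE is the log2 change over the square root of F. Isozyme shares were compared by exact permutation. Values in every library are given for called members, the member with most counts per kilobase in each role and the isozyme families; related lists name up to 3 called genes. Members and lists were chosen with earlier results of these data known. Of the erythroid markers listed at the outset, 2 are not reported here and were left out of the sums.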

Additional observations from a re-analysis of the deposited data

Results flagged for a closer look

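In 123 groups of 4 libraries examined (the 37 rows and 4 isozyme shares in each group), 5 had a library standing apart, by a gap to its nearest neighbour larger than Dixon's 95% critical share of the group's range, a limit that chance passes in about 1 in 20 groups. Pfkp was at 220.3 CPM in untreated 10-week replicate 5 and at 136 to 146 CPM in the other 3 libraries of that group. Ldha was at 337 CPM in the same library and at 226 to 236 CPM in the others. Aldoa was at 183 CPM in 2DG replicate 10 and at 206 to 207 CPM in the other treated libraries. Untreated 6-week replicate 4 had the highest Mpc1 of its group, 7.12 CPM against 5.88 to 5.94, and the highest Pdk1, 40.1 CPM against 33.8 to 34.5.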

How the results depend on the processing

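For 2DG against untreated spleens at 10 weeks, the 7 members called (7.42% of all genes) became 1 in a fit of only the compared groups (Pgam2; 3.21%) and 12 with DESeq2 (6.29% of genes with any count), ranged from 1 to 12 with each library left out (1 without 2DG replicate 10 or 11, with 2.75% and 2.74% of all genes, 4 without 2DG replicate 9, with 5.09%, and 12 without untreated replicate 8, with 11.8%), and were 15 (16.7%) without untreated replicates 6 and 8, an alternative chosen after seeing the data from their correlation with other libraries. With age the 0 called became 2 with DESeq2 (1.89%), 0 to 4 with each library left out and 11 (12.0%) without replicates 6 and 8. For 2DG against 6 weeks the 0 called became 5 in a fit of only the compared groups (7.54%), 4 with voom (8.87%), 3 with DESeq2 (2.45%), 0 to 2 with each library left out and 2 (3.96%) without replicates 6 and 8. The cause of these differences was not tested. No called gene changed sign under any of 20 alternatives; Pfkp, Pkm and Pfkfb3 each kept their call in 17.

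The difference in Pfkm share per kilobase was 16.5 percentage points at 10 weeks and 14.2 against 6 weeks. The difference in Pfkm share with age, -1.0 points, ran from -2.22 to 0.0264 with each library left out, above 0 without untreated replicate 5. The difference in Ldhb share for 2DG against 6 weeks, 0.0195 points, ran from -0.129 to 0.23, below 0 without 6-week replicate 1 (-0.129) or 3 (-0.12) or 2DG replicate 9 (-0.0594). No paired analysis was possible because replicate numbers run on across the groups. The tested members with means under 10 CPM in every group (Aldoc, Pgk1, Pgam1, Pgam2, Eno2, Ldhb, Pfkfb1 and Mpc1) rest on 38 to 215 counts per library.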
